A study of Mus musculus with 8 samples.

Results

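The 9 regulators of definitive endoderm named next were followed by their H3K4me3, the trimethylation of histone H3 at lysine 4 that marks promoters, namely Foxa1, Foxa2, Sox17, Gata4, Gata6, Hnf4a, Onecut1, Hhex and Cxcr4. They were chosen by name, as genes on the route from endoderm and gut tube to pancreas, and are 9 of 26212 annotated genes. The study asked how H3K4me3 depends on menin, the product of Men1 and a subunit of histone methyltransferase complexes, before and after differentiation. The wild-type (wt) mouse embryonic stem cells (mESCs) were of the line TC-1 and the menin-null mESCs of the Men1-ko line 3.2N, both of the 129S6/SvEvTac background and both grown on feeder cells that were removed before use. Pancreatic islet-like endocrine cells (PILECs) were derived from each line in culture, without treatment other than the differentiation itself. Each genotype was therefore represented by 1 line, and each kind of cell gave 1 ChIP-Seq library for H3K4me3 and 1 for input chromatin, which makes 8. With 1 library per condition there was no replicate, so no test of the conditions was possible, and every interval given is a 95% interval of counting error only that compares libraries.

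The H3K4me3 libraries held 2432377 to 3517028 mapped tags in mESCs and 17682677 to 18773635 tags in PILECs, and the inputs 3744616 to 19016697 tags. A level is the number of tags within 1 kb of an annotated transcription start, per 1000000 mapped tags (RPM). Over exons 3 to 8 of Men1, at chr19:6336725-6338961 (mm9), the wt inputs held 17 tags (mESCs) and 22 tags (PILECs), and both menin-null inputs 0 tags, where a count of 0 allows up to 3. The 8 mESC marker genes carried a summed H3K4me3 of 325.2 RPM in wt mESCs and 408.0 RPM in their menin-null counterpart, and of 39.7 and 38.0 RPM in the PILECs, with 8 of 8 above input in both kinds of mESCs. Of 10 islet markers, 4 were above input in each PILEC library and also in each mESC library. By the 2-fold rule given below, Pcsk2, a hormone-processing protease, was called higher in wt PILECs than in wt mESCs, at 26.3 against 9.46 RPM. In that comparison 5.05% of all genes were called higher. In menin-null cells none was called higher (3.99% of all genes). There the hormone gene Sst was called lower (18.4% of all genes), at 0.848 against 3.98 RPM, on 15 and 14 tags. The median islet marker stood at 1.85 RPM in both mESCs and at 1.09 and 1.05 RPM in wt and menin-null PILECs, and the summed level at 42.8 and 42.4 against 65.0 and 56.2 RPM. Neural markers (6 of 7 found) summed to 84.7 and 107.2 RPM in wt and menin-null mESCs and to 164.8 and 160.7 RPM in the PILECs, fibroblast markers to 67.0 and 74.5 against 65.7 and 57.0 RPM, heart markers to 60.8 and 70.2 against 68.4 and 62.7 RPM, and endothelium and blood markers to 42.3 and 32.4 against 31.5 and 29.3 RPM. Dcx, a microtubule protein of young neurons, had 0 tags before and 201 tags after differentiation of the wt line. Of these lists the islet and neural ones had a higher sum in PILECs of both genotypes, and the part of neural cells in the results on the endoderm genes was not tested. In such bulk chromatin, fewer cells that carry the mark and less mark per cell cannot be told apart.

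Definitive endoderm is the germ layer that forms the lining of the gut and, from it, the liver and pancreas. It arises under Nodal signals, and its genes are then set by a network in which Sox17, Foxa and Gata factors act early and Hhex, Onecut1 and Hnf4a act as the gut tube is divided into organ fields. In embryonic stem cells many such regulators are silent yet carry H3K4me3 together with a repressive mark, so a marked start is not by itself a sign of transcription.

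Starts rich in CG pairs tend to carry H3K4me3, so the promoter sequences of contrasting members are shown first. Each is the 250 bases before an annotated start, read 5′ to 3′ on the strand of the gene from the mm9 genome, with the CG pairs in capitals. In the 250 bases before annotated starts, Onecut1 had the most CG pairs of all members (31 before the start at chr9:74709728, window chr9:74709478-74709727, plus strand) and Hnf4a the fewest at its most marked start (4 before chr2:163372923, window chr2:163372673-163372922, plus strand). The pair of annotated starts of Hhex is shown because neither holds the mark of that gene (2 CG pairs before chr19:37507377, window chr19:37507127-37507376, and 11 before chr19:37511229, window chr19:37510979-37511228, both plus strand).
Onecut1 promoter: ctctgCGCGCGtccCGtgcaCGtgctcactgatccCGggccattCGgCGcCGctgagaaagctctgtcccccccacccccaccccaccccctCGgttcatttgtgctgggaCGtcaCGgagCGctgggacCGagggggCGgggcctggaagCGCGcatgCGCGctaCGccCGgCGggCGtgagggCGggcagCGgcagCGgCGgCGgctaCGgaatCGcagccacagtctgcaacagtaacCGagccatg
Hnf4a promoter: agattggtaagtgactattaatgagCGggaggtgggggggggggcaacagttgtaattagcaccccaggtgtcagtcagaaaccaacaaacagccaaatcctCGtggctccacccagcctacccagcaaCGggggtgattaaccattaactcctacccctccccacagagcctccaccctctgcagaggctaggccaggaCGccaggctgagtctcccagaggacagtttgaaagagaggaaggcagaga
Hhex promoter, upstream start: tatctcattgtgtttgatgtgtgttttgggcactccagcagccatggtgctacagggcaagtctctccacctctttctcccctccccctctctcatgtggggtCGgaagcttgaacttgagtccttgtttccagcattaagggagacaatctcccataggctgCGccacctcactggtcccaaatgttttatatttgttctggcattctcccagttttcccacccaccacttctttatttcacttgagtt
Hhex promoter, downstream start: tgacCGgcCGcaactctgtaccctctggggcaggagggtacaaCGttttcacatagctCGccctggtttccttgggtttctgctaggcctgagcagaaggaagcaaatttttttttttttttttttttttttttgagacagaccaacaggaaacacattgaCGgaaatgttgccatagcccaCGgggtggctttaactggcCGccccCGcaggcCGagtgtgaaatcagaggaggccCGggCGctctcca

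Of the 9 members, 6 matched a RefSeq promoter entry (build GRCm38.p6) whose sequence could be placed on mm9 by exact match, and Sox17, Gata4 and Gata6 did not match. For Hhex the RefSeq start fell at chr19:37509331, between the annotated starts, 1954 bp after the first and at -1898 bp from the second. It lies 29 bp before the start codon, inside the untranslated part of the first exon of the longer transcript, and had 32 CG pairs in the 250 bases before it. Within 500 bp of the start, the count of CG pairs was 96 for Foxa1, 81 for Onecut1, 70 for Foxa2, 64 for Gata6, 63 for Gata4, 43 for Cxcr4, 30 for the main annotated start of Hhex, 25 for Sox17 and 24 for Hnf4a, against a median of 40 over all genes and 124 at the RefSeq start of Hhex. A forkhead motif, TGTTTAC on either strand, was found before 1 of the 9 starts, that of Foxa1, and before 2.63% of all starts. A GATA motif, AGATAA on either strand, was found before 0 of 9 and before 8.60% of all starts. Both motifs were counted before the most marked annotated start of each gene only. AGATAA does occur before other annotated starts of Foxa2, Hnf4a and Gata4.

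Above the input of the same cells, with an interval that left out 1, stood 8 of 9 members in wt and 7 in menin-null mESCs, and 6 in PILECs of either genotype. Most levels lay near the middle of all genes, and the highest, that of Cxcr4 in wt PILECs, was above 76.9% of genes. In the plot of the levels the members fall into marked genes (Foxa1, Foxa2, Gata4, Gata6, Onecut1, Cxcr4) and genes whose annotated start was not above the input in PILECs (Sox17, Hnf4a, Hhex), nor in wt mESCs for Hhex and in menin-null mESCs for Sox17 and Hnf4a.

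**Figure D1:**
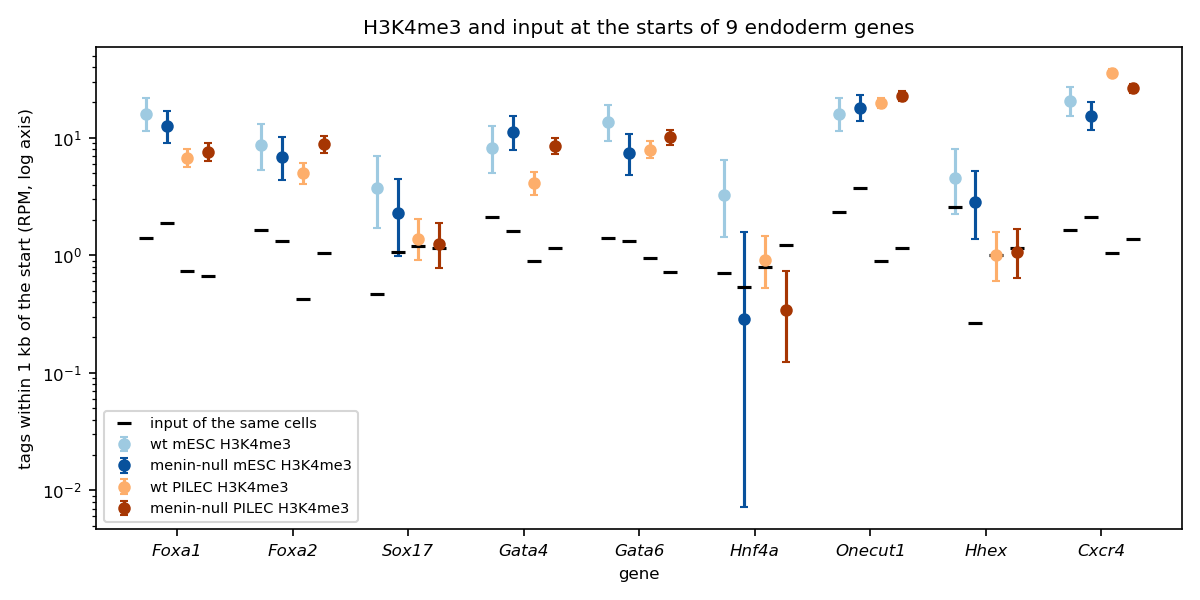
H3K4me3 within 1 kb of the annotated start of each of the 9 genes (dots, RPM on a log axis, bars are 95% Poisson intervals of the count) in the 4 H3K4me3 libraries, with the input of the same cells as a black dash. Cxcr4 and Onecut1 stand highest in PILECs, at 35.7 and 19.7 RPM in wt, while Sox17, Hnf4a and Hhex stand within counting error of the input there, or below it.

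Foxa1 and Foxa2 encode forkhead pioneer factors, which open chromatin at endoderm enhancers. Foxa1, on chromosome 12 with 1 annotated start at 58647108 (minus strand), held 39 tags (16.0 RPM) in wt and 44 tags (12.5 RPM) in menin-null mESCs, then 126 tags (6.71 RPM) in wt and 135 tags (7.63 RPM) in menin-null PILECs. It was above input in all 4 libraries, by 11.4, 6.69, 9.12 and 11.5 times, and its levels in RPM were higher in both mESC libraries than in both PILEC libraries. Foxa2, on chromosome 2 with 4 annotated starts of which the main one is 147871684 (minus strand), held 21 tags (8.63 RPM), 24 tags (6.82 RPM), 94 tags (5.01 RPM) and 155 tags (8.77 RPM) in the same order. Its lowest level was that of wt PILECs, with an interval of 4.05 to 6.13 RPM. That interval lay below the one of menin-null PILECs (7.44 to 10.3 RPM) and overlapped those of both mESCs. The other libraries overlapped each other within counting error. At the most downstream start of Foxa2, 484 bp past the main one, menin-null PILECs held 192 tags and wt PILECs 100 tags, whereas at its most upstream start, 1021 bp away, they held 56 and 46 tags.

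Gata4 and Gata6 encode zinc finger factors of endoderm and heart. Gata4, with 6 annotated starts on chromosome 14, held at its main start, 63864085 (minus strand), 20 tags (8.22 RPM) in wt and 39 tags (11.1 RPM) in menin-null mESCs, then 77 tags (4.10 RPM) in wt and 151 tags (8.54 RPM) in menin-null PILECs. The menin-null value was the higher one in both stages, but in mESCs the gap was within counting error. At the distant starts of Gata4, at -25876, -26444 and 31641 bp from the main one, no library was above input. For Gata6, on chromosome 18, the counts were 33 tags (13.6 RPM), 26 tags (7.39 RPM), 149 tags (7.94 RPM) and 179 tags (10.1 RPM). Wt mESCs had the highest value, with an interval that overlapped that of menin-null PILECs. An antisense gene, 1010001N08Rik, has a start 57 bp from that of Gata6 and another 1021 bp upstream, and ChIP tags cannot be assigned to one gene or the other.

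Onecut1 (also called HNF6), a cut homeodomain factor of liver and pancreas precursors, held 39 tags (16.0 RPM), 63 tags (17.9 RPM), 370 tags (19.7 RPM) and 399 tags (22.6 RPM), with overlapping intervals between genotypes in both stages. Its other start, 4563 bp downstream, held 53 tags (2.82 RPM) in wt and 58 tags (3.28 RPM) in menin-null PILECs, above input, and was not above input in mESCs. Cxcr4, the receptor of the chemokine Cxcl12 and a surface marker of definitive endoderm, with its start at chromosome 1, 130488867 (minus strand), held 50 tags (20.6 RPM) in wt and 54 tags (15.4 RPM) in menin-null mESCs, then 670 tags (35.7 RPM) in wt and 466 tags (26.4 RPM) in menin-null PILECs. Here the levels of both PILEC libraries stood above those of both mESC libraries. The intervals of menin-null PILECs (24.0 to 28.9 RPM) and wt mESCs (15.3 to 27.1 RPM) overlapped. Between genotypes the gap exceeded counting error in PILECs only, with wt higher. Together these genes led the order of the members in both kinds of PILECs, in which Cxcr4 was followed by Onecut1 and then Gata6, and each step between them had an interval that left out equality. In wt mESCs no neighbours in the order of the 9 members could be told apart.

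Sox17, an HMG box factor needed for endoderm, held at its annotated start on chromosome 1, 4486494 (minus strand), 9 tags (3.70 RPM) in wt and 8 tags (2.27 RPM) in menin-null mESCs, then 26 tags (1.38 RPM) in wt and 22 tags (1.24 RPM) in menin-null PILECs. The PILEC values were within counting error of the input, at 1.21 and 1.16 RPM. Its mark lay elsewhere in the gene. A region of 2000 bp at chr1:4481801-4483800, 2694 to 4693 bp downstream of the start and 67% exonic, which includes the start codon at 4483485, held 61 tags (25.1 RPM) in wt and 96 tags (27.3 RPM) in menin-null mESCs, then 88 tags (4.69 RPM) in wt and 152 tags (8.60 RPM) in menin-null PILECs. All 4 libraries were above input there, and in RPM the mESCs were by far the highest. Over input the intervals were 4.73 to 18.1 times in wt and 4.97 to 19.2 in menin-null mESCs. In PILECs they were 2.52 to 6.79 in wt and 5.80 to 17.5 in menin-null cells, the latter overlapping both mESC libraries. This region was chosen after its values were seen, as were the RefSeq start and the region of Hhex. The limits of the region were set by the tags of wt mESCs, which favours a higher value in that library.

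Hhex encodes a homeodomain factor of the anterior endoderm and of liver and ventral pancreas buds. Its annotated start at 37511229 held 11 tags (4.52 RPM) in wt and 10 tags (2.84 RPM) in menin-null mESCs, then 19 tags (1.01 RPM) in wt and 19 tags (1.07 RPM) in menin-null PILECs, and only in menin-null mESCs, with 1 input tag, did the interval over input leave out 1. At the RefSeq start the picture was different, with 141 tags (58.0 RPM), 297 tags (84.4 RPM), 316 tags (16.8 RPM) and 210 tags (11.9 RPM). These are the highest levels of any member in both kinds of mESCs. They exceeded input by at least 11.4, 18.3, 9.44 and 6.53 times at the lower limit of the interval, in the same order.

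**Figure D2:**
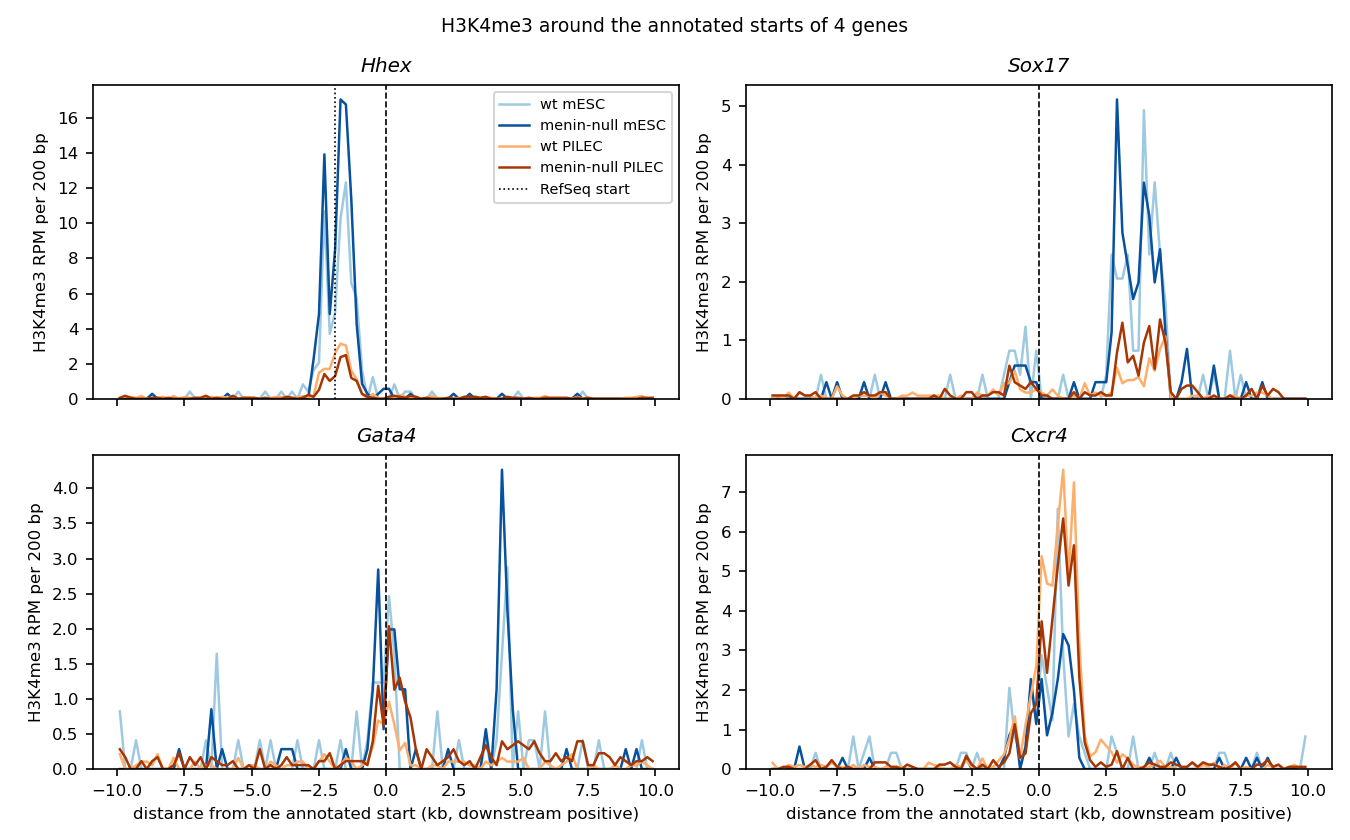
H3K4me3 tags per 200 bp (RPM) against distance from the annotated start (dashed line) in kb for Hhex, Sox17, Gata4 and Cxcr4 in the 4 H3K4me3 libraries. The mark of Hhex peaks 1500 to 1700 bp upstream of the annotated start and just past the RefSeq start (dotted), that of Sox17 lies 2694 to 4693 bp downstream, and that of Cxcr4 peaks 700 to 900 bp downstream in every library.

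Hnf4a, a nuclear receptor of liver and gut, was the least marked member. At its main start of 7 it held 8 tags (3.29 RPM) in wt and 1 tag (0.284 RPM) in menin-null mESCs, then 17 tags (0.906 RPM) in wt and 6 tags (0.339 RPM) in menin-null PILECs. Only the first of these was above input. In menin-null PILECs the H3K4me3 library held fewer tags than its input (22 tags, 1.21 RPM), with an interval of the ratio from 0.0927 to 0.711. At the distant upstream start of Hnf4a, 40379 bp away, no library had an interval above input.

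How far the mark reached was measured after each library was thinned to 2432377 tags, by joining 200-bp windows with at least 5 tags across gaps of up to 400 bp. Tags were drawn at random 3 times, and the values given are those of draw 1 unless another is named. A domain touched the 2-kb window of 8 members in wt and 4 in menin-null mESCs, and of 4 in wt and 5 in menin-null PILECs, against 56.0%, 55.5%, 51.6% and 50.9% of all genes. The wt mESC library, being the smallest, lost no tags, and the count in menin-null mESCs was higher in the other draws. Gata6 had a domain of 400 bp there in draw 2, and Foxa2 is described below. Among the members without a domain in menin-null mESCs was Hhex, whose domain was 1800 bp wide in both mESCs and ended at -829 bp from the annotated start in wt and at -1029 bp in menin-null cells, just outside the window. The domain of Onecut1 was 1200 bp wide in both mESCs, then 2000 bp in wt and 2600 bp in menin-null PILECs, where it was the widest of the members. Its width in draw 3 was 600 bp in menin-null mESCs and 1200 bp in wt PILECs, the latter equal to wt mESCs. For Cxcr4 the width was 1400 bp in wt mESCs, with a separate region of 200 bp upstream, and 1800 bp in menin-null mESCs, then 2000 bp in wt and 1600 bp in menin-null PILECs. At Foxa1 the domain was 800 bp in both mESCs, and 400 and 200 bp in wt and menin-null PILECs, and its second marked region, 2908 to 3307 bp downstream in wt mESCs, was found in mESCs only. In draw 3 the Foxa1 domain was 0 bp in wt and 800 bp in menin-null PILECs. Within 1 kb of their starts, Foxa2 had a domain of 600 bp (at -716 to -117 bp) and Hnf4a one of 200 bp (at 78 to 277 bp) in wt mESCs. Hnf4a had none in the other libraries in any draw, and Foxa2 none in draw 1. In menin-null mESCs Foxa2 had a domain of 200 bp in draws 2 and 3, and in menin-null PILECs one of 200 bp in draw 2.

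The effect of menin loss in mESCs was asked first. A member is called here when its RPM, after the addition of 1 tag to every count, differed at least 2-fold and the interval left out 0, over genes with at least 10 tags in the compared libraries. None of the 8 members with enough tags was called higher or lower in menin-null mESCs, where 0.779% of 16171 genes were called higher and 0.835% lower. The log2 ratios ran from -0.86 for Gata6 (95% interval -1.68 to -0.09) to 0.40 for Gata4 (-0.38 to 1.29), with -0.42 for Cxcr4 (-1.003 to 0.16). Of the 9, 7 were below 0, and the median was -0.42 against 0.21 over all genes. Scaling by the tags near any start, 43.5% of the wt and 51.4% of the menin-null library, moved the median of all genes by -0.24, that of the members to -0.66, and Gata6 past the fold. The input within 50 kb of Gata6 was also lower in menin-null mESCs, by a log2 ratio of -0.32 (-0.62 to -0.02), from 227 to 160 tags. At the start itself the input ratio was -0.04 (-2.13 to 1.89), on 6 tags in wt and 5 in menin-null mESCs. The part of the input in the ratio of Gata6 was not tested. Hnf4a, with 9 tags in all, was too sparse to be called. At the RefSeq start of Hhex the ratio was 0.54 (0.25 to 0.84).

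In PILECs, where the counts were larger, Gata4 was called higher without menin and Hnf4a lower. Of 24032 genes 1.28% were called higher and 1.31% lower, and the median of the members was 0.19 against -0.06 over all genes. Gata4 rose from 77 to 151 tags, a log2 ratio of 1.05 (0.65 to 1.47), while its input held 17 and 21 tags and the input within 50 kb had a log2 ratio of -0.06 (-0.20 to 0.07). Its ratio lay on the edge of the fold, between 0.90 and 1.22 over the alternatives, and it fell below the line with 1 tag per position (0.97), with tags at their 5' end (0.99), within 0.5 kb (0.91) and over all annotated starts (0.90). The call of Gata4 was also lost after thinning and at the 5' end of the gene.

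Foxa2 was the next highest, at 0.80 (0.43 to 1.19), short of the fold. Its input moved the same way, from 8 to 19 tags, a log2 ratio of 1.22 (0.06 to 2.72), while the input within 50 kb had a ratio of 0.14 (0.0004 to 0.28). The part of the input in the result was not tested. Gata6 stood at 0.35 (0.03 to 0.67), Onecut1 at 0.19 (-0.01 to 0.40) and Foxa1 at 0.19 (-0.18 to 0.55). Cxcr4 lay on the other side, at -0.44 (-0.61 to -0.26), an interval that left out 0 with a ratio well inside the fold. Hnf4a fell by 1.28 on the log2 scale (interval -3.05 to -0.01), on 17 and 6 tags that lay at and below the input, and at the 5' end of the gene its ratio was 0.43. That end had more RPM than the main start in menin-null mESCs (1.14 against 0.284) and PILECs (1.02 against 0.339). The main start was chosen by its mark, mostly that of wt cells, so the call is not independent of that choice. It was also lost with 1 tag per position, tags at their 5' end, scaling by tags near starts, thinning, input subtracted, within 2 or 5 kb and over all annotated starts. In the region inside Sox17 the ratio was 0.87 (0.49 to 1.27), and at the RefSeq start of Hhex -0.50 (-0.76 to -0.25).

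**Figure D3:**
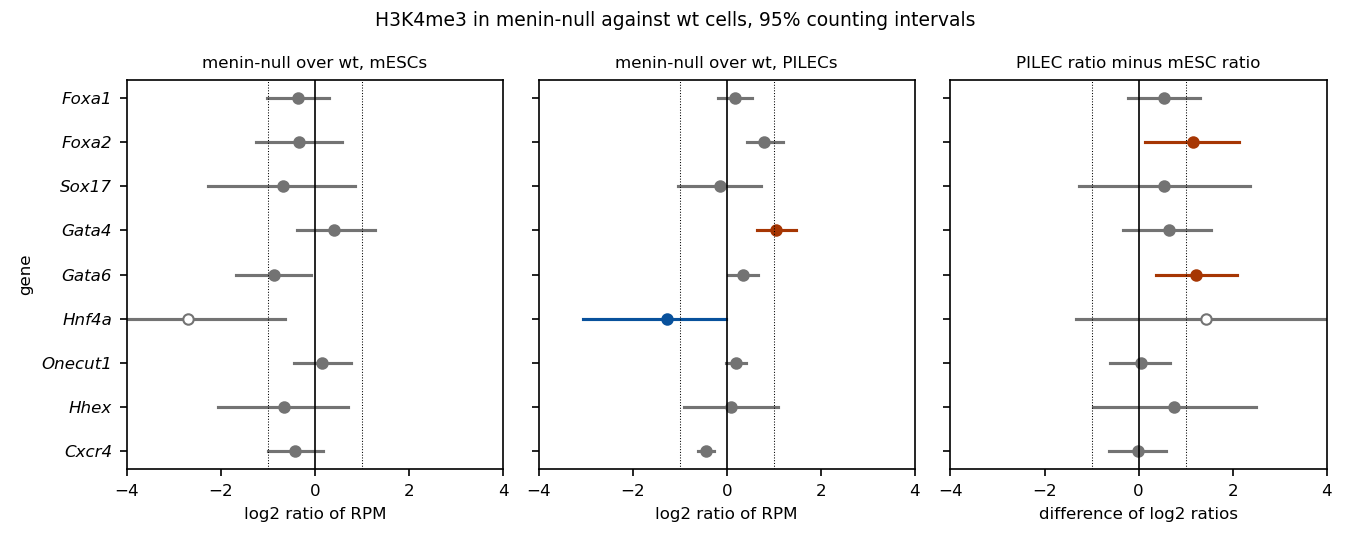
Log2 ratio of H3K4me3 in menin-null over wt cells at the annotated starts in mESCs (left) and PILECs (middle), and the PILEC ratio minus the mESC ratio (right), with 95% counting intervals that are clipped at 4. Coloured dots passed the 2-fold lines with an interval that left out 0, and open dots had too few tags. Gata4 (1.05) and Hnf4a (-1.28) did so in PILECs, and Foxa2 (1.15) and Gata6 (1.21) in the difference.

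Whether the ratio of menin-null over wt differed between the stages was then asked of the 4 counts together. Foxa2 and Gata6 were called higher in PILECs than in mESCs and 0 members lower, where 0.829% of 16156 genes were called higher and 3.39% lower. The difference of log2 ratios was 1.21 for Gata6 (0.37 to 2.09) and 1.15 for Foxa2 (0.14 to 2.14), and the median of the 9 members was 0.65 against -0.31 over all genes. Both differences joined a ratio below 0 in mESCs, on 33 and 26 or 21 and 24 tags, with one above 0 in PILECs, and both were short of the fold after division by the input (0.80 and 0.92) or thinning to equal depth (0.94 and 0.96). Cxcr4 (-0.01) and Onecut1 (0.05) had nearly equal ratios in both stages, with intervals from -0.63 to 0.59 and from -0.62 to 0.67. Hhex at its RefSeq start went the opposite way, with a difference of -1.04 (-1.44 to -0.65) that passed the fold. Scaled by tags near any start, that difference falls short of the fold.

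Most members stood lower after differentiation in wt cells. Of the 9, 5 were called lower in wt PILECs than in wt mESCs (Foxa1, Sox17, Gata4, Hnf4a and Hhex) and 0 higher, where 12.9% of 21253 genes were called lower and 5.05% higher. The log2 ratio was -1.28 for Foxa1 (-1.78 to -0.70), -1.06 for Gata4 (-1.73 to -0.22), -1.52 for Sox17 (-2.56 to -0.14), -1.95 for Hnf4a (-3.15 to -0.44) and -2.21 for Hhex at the annotated start (-3.30 to -0.94). The main start of Hnf4a was chosen by its mark, mostly through 8 tags (3.29 RPM) in wt mESCs, so its fall is not independent of that choice. Hnf4a was not called at the 5' end of the gene or over all annotated starts. Foxa2 at -0.84 and Gata6 at -0.81 had intervals below 0 without reaching the fold. Cxcr4 stood at 0.77 (0.38 to 1.24) and Onecut1 at 0.27 (-0.18 to 0.81).

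These ratios carry a limit of their own, since the inputs differed in the same direction. Summed over the 9 starts, the input fell from 14.4 RPM before to 7.94 RPM after differentiation, with a log2 ratio of -0.87 (-1.29 to -0.40), while the median input over all genes went from 1.65 to 0.947 RPM. After division by the input within 5 kb the median of the members went from -1.06 to -0.08, with Hnf4a called lower and Onecut1 and Cxcr4 called higher. Tags beyond the first at a position and strand made up 11.4% of the wt mESC library and 11.5% of the wt PILEC library (4.17% in menin-null mESCs), and with 1 tag per position Foxa1 and Hhex stayed called. Thinned to the smallest library, Hhex alone was called, and with tags of at most 2 mismatches, the filter the study states, Gata4 fell just short of the fold (-0.99). At the RefSeq start of Hhex the ratio was -1.79 (-2.07 to -1.49), and in the region inside Sox17 it was -2.43 (-2.91 to -1.92), while the input there changed from 2.82 to 1.16 RPM. Since wt mESC tags set the limits of that region, its ratio is drawn down.

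In menin-null cells 8 members could be called for the same step, since Hnf4a had too few tags. Hhex was called lower, at -1.47 (-2.58 to -0.14), and 0 members were called higher, where 18.4% of 21633 genes were called lower and 3.99% higher. Sox17 stood at -0.98 (-2.09 to 0.51), Foxa1 at -0.73 (-1.21 to -0.19) and Gata4 at -0.40 (-0.89 to 0.17), Foxa2 at 0.31 (-0.27 to 1.05) and Gata6 at 0.41 (-0.15 to 1.11), and Cxcr4 at 0.76 (0.37 to 1.21). The median of the members was -0.40 against -0.33 over all genes. Scaling by tags near any start moved the median of all genes by 0.36 and Cxcr4 to 1.12, past the fold, while Hhex was no longer called, nor was it after division by the input or within 0.5 kb. At its RefSeq start, however, Hhex fell by 2.83 (interval -3.09 to -2.57), while the input there went from 2.40 to 1.16 RPM. The region inside Sox17 fell by 1.67 (interval -2.05 to -1.28), while its input went from 2.94 to 0.883 RPM. H3K4me3 over input in that region had intervals of 4.97 to 19.2 times in menin-null mESCs and 5.80 to 17.5 times in menin-null PILECs. The part of the input in this fall was not tested. The input summed over the 9 starts changed by -0.54 (-0.98 to -0.05).

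**Figure D4:**
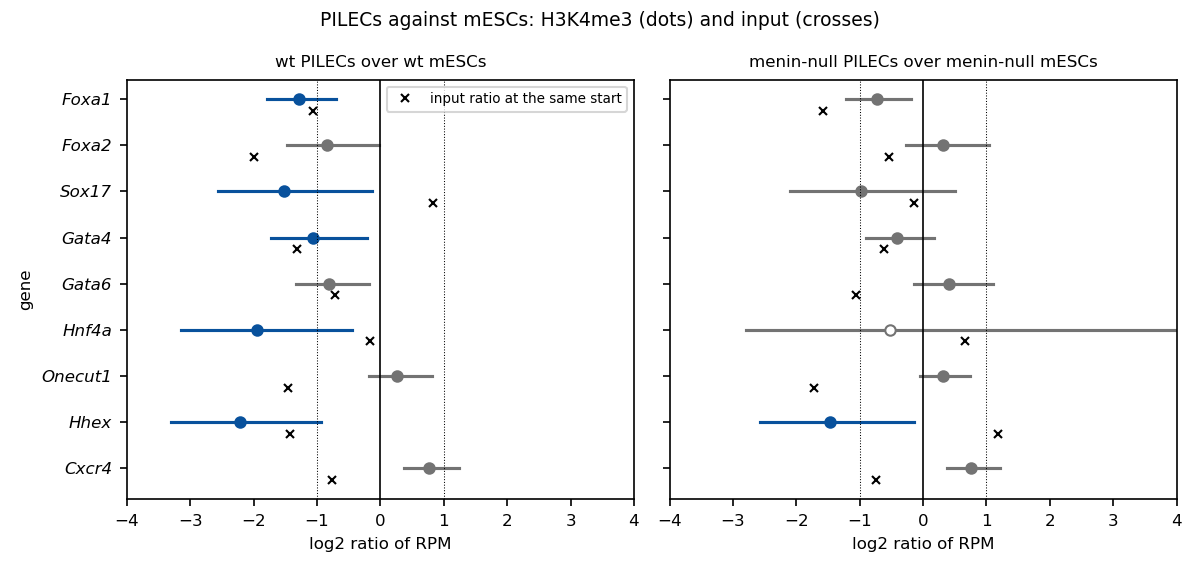
Log2 ratio of H3K4me3 in PILECs over mESCs at the annotated starts in wt (left) and menin-null cells (right), dots with 95% counting intervals clipped at 4, and the input ratio at the same start as a cross. Blue dots are called lower. In wt cells 5 of 9 members are called lower and 0 higher, and the input ratio is below 0 at 8 of 9 starts.

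The genes upstream and downstream of the members were described by lists of their own. Of 14 mesendoderm genes, among them ligands and factors of the Nodal pathway, 9 were called lower and 1 higher in wt PILECs than in wt mESCs, and 11 lower and 2 higher in menin-null cells. Over all genes, these shares were 12.9% lower and 5.05% higher in wt and 18.4% and 3.99% in menin-null cells, which also stand beside the lists that follow. The lists were not divided by the input, which was lower in PILECs. In wt mESCs and PILECs it summed to 38.8 and 13.6 RPM over the mesendoderm genes and to 35.3 and 15.3 RPM over the gut tube genes. The part of the input in the list calls was not tested. Tdgf1, the co-receptor of Nodal and also an mESC marker here, fell from 41.5 to 1.49 RPM in wt cells, and Lefty2, a Nodal antagonist, from 18.9 to 1.49 RPM. None of the 14 was called between genotypes in either stage, and the difference between the stages was called lower (3.39% of all genes) for Lefty1 (-1.23) and Lefty2 (-1.14).

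Of 16 gut tube genes 12 were called lower and 1 higher in wt PILECs, and 11 lower and 2 higher in menin-null PILECs, beside 12.9% and 18.4% of all genes called lower. Cdh1, the epithelial cadherin, fell from 69.9 to 7.83 RPM in wt cells and from 96.7 to 9.22 RPM in menin-null cells. Shh, a hedgehog ligand of the gut epithelium, rose in menin-null PILECs over menin-null mESCs from 1.42 to 13.0 RPM, a log2 ratio of 2.93 (1.94 to 4.82). The difference between the stages was called higher for 4 of the 16, against 0.829% of all genes, among them Shh at 2.02 (0.28 to 4.10) and Cldn6, a tight junction protein, at 1.78 (0.67 to 2.97).

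Among 10 pancreas progenitor genes 3 were called lower in PILECs of either genotype and 1 higher, beside 12.9% (wt) and 18.4% (menin-null) of all genes called lower. Between genotypes, Neurod1, an endocrine factor that is also an islet marker, was called lower in menin-null mESCs, at -1.24 (-2.59 to -0.09) on 17 and 10 tags. Sox9, a factor of pancreas progenitors and of many other tissues, went from 12.7 to 56.0 RPM in wt cells and rose from 8.53 to 52.3 RPM in menin-null cells. Pdx1, the defining factor of pancreas, fell from 7.40 to 1.07 RPM in wt cells, with a log2 ratio of -2.80 (-3.79 to -1.79), and Neurog3, which starts the endocrine program, fell from 12.3 to 2.24 RPM. Of 5 partners of Cxcr4, Ackr3, the other receptor of Cxcl12, rose from 5.34 to 17.5 RPM in wt and from 3.13 to 14.8 RPM in menin-null cells. Cxcl12 itself rose in menin-null cells, with 39 tags in mESCs, 442 tags in the deeper PILEC library and a log2 ratio of RPM of 1.14 (0.70 to 1.68), and went from 9.87 to 20.03 RPM in wt cells, where it was not called. No partner was called between genotypes. Of 67 listed genes, Nkx6-1, Nkx2-2 and Gsc had log2 levels over the 4 libraries nearest to the median member, at Euclidean distances of 0.56, 0.68 and 1.11.

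Read against sequence, the 3 members with the fewest CG pairs within 500 bp, Hnf4a (24), Sox17 (25) and Hhex at its annotated start (30), were those within counting error of the input, or below it, in both kinds of PILECs. The 6 others, with 43 to 96 pairs, were above input in all 4 libraries. Cxcr4, with 43 pairs, had the highest ratio over input in wt PILECs, 33.9, so the ratio did not follow the count of CG pairs among the marked members. This is a description of 9 genes that share the same libraries. In mESCs, Sox17 and Hnf4a were above input in wt despite few CG pairs, on 9 and 8 tags, and Hhex in menin-null mESCs, on 10 tags against 1 input tag.

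**Figure D5:**
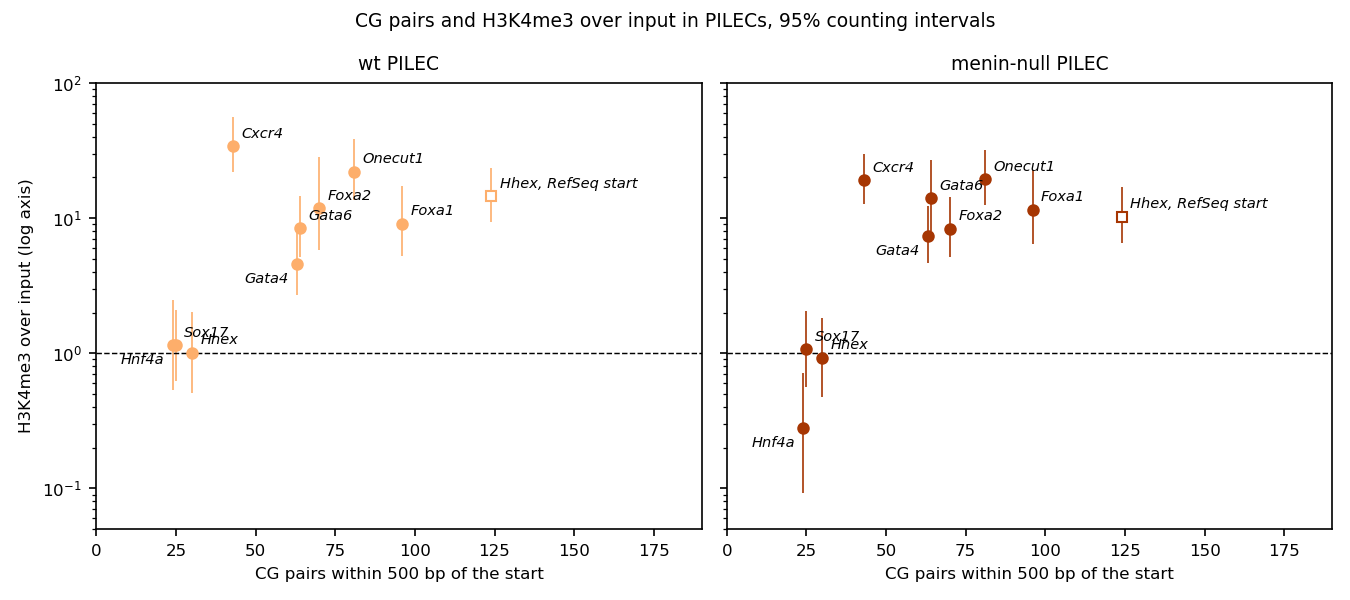
H3K4me3 over input (log axis, bars are 95% counting intervals) against the number of CG pairs within 500 bp of the start, for the 9 genes in wt (left) and menin-null PILECs (right), with the RefSeq start of Hhex as an open square and equality with the input as a dashed line. The 3 starts with 24 to 30 pairs have intervals that span the line or, for Hnf4a in menin-null PILECs, lie below it, and the 6 with 43 to 96 pairs and the RefSeq start of Hhex with 124 lie above it.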

How the data were processed

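ChIP-Seq for H3K4me3 and input chromatin was carried out in 1 library per kind of cell, with an antibody from Upstate on chromatin sonicated to 250 bp on average. The authors aligned 36-bp reads to mm9, kept those of 1 location with no more than 2 mismatches, and deposited 1 line per tag with its position, unnormalized, with no count or signal. The aligner is not given in the sources used here. Tags with more than 2 mismatches (1.04% to 1.81%) were present and were kept. The deposited score of each tag, from 4 to 119, was not used.

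Each tag was moved 125 bp to the middle of a 250-bp fragment and counted within 1 kb of the starts of 26212 genes of the GENCODE M1 annotation of mm9, the start being the most marked one of each gene. Totals of the libraries set the scale, as in the study. The intervals of counts are Poisson, those of ratios exact conditional binomial (Clopper-Pearson), and those of stage differences exact conditional limits of the odds ratio, at 95%, for counting error only. The tag added to each count weighs more in the shallower mESC libraries, so stage ratios of sparse genes are drawn down, and intervals were taken without it. Python 3.11.15, numpy 2.4.6, pandas 2.3.3, scipy 1.17.1 and matplotlib 3.10.9 were used. The intervals and calls were tested on simulated counts with Poisson error only, the error that the intervals assume. Variation between libraries was not part of that simulation. The members, lists and tests were chosen with earlier results of these data known, and so were the alternatives. Named genes were the members, Men1, at most 3 called genes of the largest ratio per list and comparison, and the 3 genes nearest to the median member. A gene that this rule names is not reported here. The RefSeq starts, the 5-kb window and the regions inside Sox17 and Hhex were chosen after seeing the data. Tags of wt mESCs set the limits of those regions.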

Additional observations from a re-analysis of the deposited data

Results flagged for a closer look

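At 3 places the ratio of menin-null over wt differed between PILECs and mESCs by 2-fold or more, with an interval of the difference that left out 0. Of 16156 genes, 0.829% were called higher and 3.39% lower by the same rule, and the median difference was -0.31. At the start of Foxa2 the difference of log2 ratios was 1.15 (95% counting interval 0.14 to 2.14), and at that of Gata6 it was 1.21 (0.37 to 2.09). At the RefSeq start of Hhex, chosen after its values were seen, it was -1.04 (-1.44 to -0.65), with menin-null above wt in mESCs and below wt in PILECs. Within 5 kb of the annotated start of Hhex, a window that holds this place, the difference was -0.85 (-1.23 to -0.48), short of the fold. The other alternatives were not run at the RefSeq start. Scaling by tags near any start shifts the ratios by -0.24 in mESCs and 0.09 in PILECs. This narrows the difference at the RefSeq start of Hhex to short of the fold. It widens those of Foxa2 and Gata6, which stayed past the fold. Neither Foxa2 nor Gata6 passed after thinning or after division by the input (0.92 and 0.80), and 1 of them alone passed with 1 tag per position, with input subtracted, at the 5' end of the gene and within 0.5, 2 or 5 kb. Each difference rests on 1 library per condition, so the difference between the conditions was not tested. The input at Foxa2 rose with menin loss in PILECs, from 8 to 19 tags, with a log2 ratio of 0.14 within 50 kb. For Gata6 in menin-null over wt mESCs the log2 ratio of the input was -0.32 within 50 kb and -0.04 at the start itself. The part of these input differences was not tested.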

How the results depend on the processing

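Of 549 values of single members that an alternative altered at all, 510 stayed inside the counting interval of the reported value, 37 moved outside it, and 2 were called values that changed direction. In all, 49 values changed sign. The 2 called values did so at the 5' end of the gene, where Hnf4a stood at 0.43 for menin-null over wt in PILECs and Hhex at 0.99 for PILECs over mESCs in menin-null cells. No paired analysis was possible because each condition had 1 library and the labels give no pairs, and for the same reason no library could be left out.

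The number of members called for menin-null over wt in mESCs went from 0 to 1 with scaling by tags near starts, thinning or a fold of 1.5 (Gata6), within 2 kb or 5 kb (Hnf4a) and over all annotated starts (Hhex). In PILECs it went from 2 to 0 with 1 tag per position, tags at their 5' end, thinning, the 5' end of the gene or all annotated starts, and to 1 with scaling by tags near starts, input subtracted, or windows of 0.5, 2 or 5 kb, while a fold of 1.5 gave 3 (with Foxa2). For PILECs over mESCs in wt it went from 5 to 2 with 1 tag per position or input subtracted, to 1 after thinning, to 3 after division by the input, within 0.5 kb or over all annotated starts, and to 8 with a fold of 1.5. Within 2 kb it stayed at 5, but Sox17 was lost and Cxcr4 was called higher. It became 4 at the 5' end of the gene, within 5 kb, and with at most 2 mismatches, where Gata4 was lost. Division by the input moved the median of the members there to -0.076. In menin-null cells it went from 1 to 0 with 1 tag per position, thinning, input subtracted, the 5' end of the gene or all annotated starts, to 3 with a fold of 1.5 and to 2 within 5 kb. Where it stayed at 1 the gene could differ, being Onecut1 after division by the input, Foxa1 within 0.5 kb and Cxcr4 with scaling by tags near starts. The median there became 0.63 after division by the input, 0.26 within 2 kb and 0.31 at the 5' end of the gene. For the difference between the stages the number went from 2 to 1 with 1 tag per position, input subtracted, the 5' end of the gene, or windows of 0.5, 2 or 5 kb, and to 0 after thinning or division by the input. Beyond the construction of each alternative (fewer tags, other windows), the cause was not tested. The 5-kb window and the RefSeq starts were chosen after seeing the data. With 8 to 63 tags per member in most mESC counts, a 2-fold change of the sparsest members was not detectable.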

Other observations

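Lists of tissues that share some of the members were read in the same way. Of 11 extraembryonic endoderm genes, a lineage that also uses Gata4, Gata6 and Sox17, 2 were called lower in wt PILECs and 0 higher, where 12.9% of all genes were called lower, so the share is near that of all genes. They were Amn, a protein of the visceral endoderm, at -3.63 (-5.06 to -2.40), and Sox7, at -1.76 (-2.50 to -0.88). Sparc, a matrix protein of parietal endoderm and of many other cells, rose in menin-null PILECs over menin-null mESCs, from 4.55 to 15.9 RPM. No gene of this list was called between genotypes. Liver and yolk sac products were hardly marked, with 1 of 11 above input in each library. Apoc3, called higher in menin-null over wt PILECs (1.28% of all genes) at 1.24 (0.08 to 2.74), held 8 tags in wt and 19 tags in menin-null cells. Of this list 2 were called lower after differentiation in wt cells (12.9% of all genes) and 3 in menin-null cells (18.4%), and 0 higher. Of 7 heart genes, Nkx2-5 and Hand2 were called lower in wt PILECs (12.9% of all genes), at -2.42 and -1.44, and none was called between genotypes.

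Several members carried a further marked region away from the annotated start in mESCs. A region of Gata4 lay 4285 to 4484 bp downstream in wt and 4085 to 4684 bp downstream in menin-null mESCs, and one of Gata6 2293 to 2492 bp and 1893 to 2492 bp downstream. At equal depth, in draw 1, neither was found in either kind of PILECs. A further region inside Gata4 in both mESCs, between -10915 and -10316 bp from the start, was also found in wt PILECs, as was one between 51085 and 52284 bp, which lies past the 3' end of the gene.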
